A study of Homo sapiens with 2 samples.

Results

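Expression of 9 genes of the MAGE family was analyzed in HCT116, a human colorectal cancer cell line, by single-cell RNA-sequencing. The 9 genes were taken by name from the 33538 genes of both count tables, and were 6 genes of the MAGEB and MAGEC subfamilies (MAGEB1, MAGEB2, MAGEB6, MAGEC1, MAGEC2, and MAGEC3), known as germline genes, and 3 genes of the MAGED subfamily (MAGED1, MAGED2, and MAGED4B), known as broadly expressed genes. One library of HCT116 cells was treated with 0.5 μM of decitabine (DAC), an inhibitor of DNA methyltransferases, on days 1 and 3, and the other was mock-treated on the same days. In both, the medium was changed on day 5 and cells were harvested on day 7. Since there was 1 library per condition, no difference between conditions has a replicate check, no test was made, and all intervals are 95% intervals that cover counting error only.

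MAGE proteins share a MAGE homology domain, by which many of them bind RING ubiquitin ligases and alter their activity. The MAGEA, MAGEB, and MAGEC genes lie on chromosome X, are expressed mainly in germ cells of the testis, and are known to be kept silent in most somatic tissues with methylated promoters. Many are expressed in tumors, where their peptides are recognized by T cells, and they are therefore called cancer-testis antigens. MAGED genes are expressed in most tissues, and their proteins act as adaptors in signaling and protein trafficking.

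Mock treatment was represented by 1783 cells with a total of 49911689 UMIs (median per cell, 27899), and DAC treatment by 1751 cells with a total of 59046165 UMIs (median per cell, 35340). Mitochondrial transcripts were over 50% of the UMIs in 311 mock-treated and 319 DAC-treated cells, and 12 barcodes were shared by both libraries. The epithelial keratins KRT8, KRT18, and KRT19 were abundant in both libraries (KRT18 at 2030 and 4280 CPM, where CPM is the UMI sum of a gene per 1000000 UMIs of its library), and EPCAM was at 349 and 222, whereas CDX1, a factor of intestinal epithelium, had 0 and 58 UMIs. Among the other epithelial markers, CLDN7 was at 323 and 153, ELF3 at 61.5 and 17.8, and CDH1 at 23.1 and 21.1 CPM. After mock treatment, the summed level of 5 fibroblast, 4 leukocyte, and 3 endothelial markers was 10.8, 6.63, and 0.12 CPM, and after DAC treatment it was 19.7, 10.1, and 1.91, mostly from COL1A1 and CD68 in the first 2 lists. The defining markers PTPRC, CD3E, and COL1A2 had 0 UMIs in the mock-treated and 16, 24, and 9 in the DAC-treated library. Of 6 male germ cell markers, DAZL, SYCP3, and DDX4 went from 0, 23, and 1 UMIs to 976, 1765, and 78, while the late spermatid genes TNP1 and PRM1 had 0 UMIs in both and PRM2 had 1 UMI in DAC-treated cells. The part of these differences in the MAGE values was not tested.

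All 9 genes were on chromosome X. Since DNA methylation, which DAC reduces, lies at CG sites, the bases upstream of the start sites of the 5 germline genes with UMIs are shown. The sequences are the 250 bases before the start site, from RefSeq (GRCh38.p14), on the strand of the gene, 5′ to 3′, with each CG dinucleotide in capitals. No annotated exon overlapped these windows, whereas the windows of MAGED1 and MAGED2 overlapped exons and are not shown. MAGEB2 (chrX:30215313-30215562, plus strand) and MAGEB1 (chrX:30246896-30247145, plus strand, the second of 2 annotated starts, within an intron of the longer transcript) had 15 and 13 CG dinucleotides.
MAGEB2: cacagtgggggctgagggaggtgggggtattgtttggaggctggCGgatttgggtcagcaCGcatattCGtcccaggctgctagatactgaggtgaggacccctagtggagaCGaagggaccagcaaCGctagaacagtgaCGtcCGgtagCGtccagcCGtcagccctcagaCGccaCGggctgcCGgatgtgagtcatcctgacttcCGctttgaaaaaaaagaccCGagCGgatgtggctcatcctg
MAGEB1: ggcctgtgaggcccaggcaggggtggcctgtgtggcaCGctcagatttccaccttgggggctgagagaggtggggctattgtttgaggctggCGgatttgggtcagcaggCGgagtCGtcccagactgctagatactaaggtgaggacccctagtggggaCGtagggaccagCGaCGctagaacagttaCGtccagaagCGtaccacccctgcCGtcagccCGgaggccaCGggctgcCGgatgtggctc
In a global alignment, 176 of 250 bases of these windows were identical (70.4%), the highest of all pairs of windows of the 9 genes. MAGEC1 (chrX:141903644-141903893, plus strand) and MAGEC2 (chrX:142205291-142205540, minus strand, within an intron of a long non-coding RNA on the opposite strand) had 11 and 6 CG dinucleotides and were 66.8% identical.
MAGEC1: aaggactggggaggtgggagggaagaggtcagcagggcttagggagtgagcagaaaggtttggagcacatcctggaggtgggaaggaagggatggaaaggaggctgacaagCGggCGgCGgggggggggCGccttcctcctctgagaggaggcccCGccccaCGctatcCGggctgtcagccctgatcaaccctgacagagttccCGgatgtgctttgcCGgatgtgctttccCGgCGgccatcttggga
MAGEC2: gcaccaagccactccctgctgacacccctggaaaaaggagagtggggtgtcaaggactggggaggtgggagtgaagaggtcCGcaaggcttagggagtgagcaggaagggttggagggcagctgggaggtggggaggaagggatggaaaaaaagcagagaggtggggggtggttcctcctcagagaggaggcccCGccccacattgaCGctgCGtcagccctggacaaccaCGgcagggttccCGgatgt
MAGEB6 (chrX:26192190-26192439, plus strand) had 8 CG dinucleotides. Of the 9 genes, its window alone held the exact ETS-type motif CCGGAAGT on either strand, a motif present in 3.42% of all 35114 windows. Variants of the motif were not counted, and CCGGATGT is present in the windows shown of MAGEB2, MAGEB1, MAGEC1, and MAGEC2.
MAGEB6: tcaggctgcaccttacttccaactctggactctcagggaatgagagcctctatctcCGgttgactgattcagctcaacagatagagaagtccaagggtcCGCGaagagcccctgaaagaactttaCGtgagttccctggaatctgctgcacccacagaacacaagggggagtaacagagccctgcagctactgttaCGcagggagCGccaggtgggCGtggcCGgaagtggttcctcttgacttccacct
Among all windows, the median was 11 CG dinucleotides (quartiles, 3 and 23), and the 5 windows shown had counts between the quartiles. The window of the first annotated start of MAGEB1, which overlapped an exon and is not shown, had 1 CG dinucleotide. The E-box CACGTG, present in 6.35% of all windows on either strand, was in no window of the 9 genes, and GCGGGAA, an E2F6-type motif present in 5.52%, was in those of MAGED4B alone. The windows give no methylation level, which was not measured here.

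Levels were first compared in CPM. MAGEB2 and MAGEB1 already had UMIs in mock-treated cells, MAGEB6, MAGEC1, and MAGEC2 had UMIs in DAC-treated cells alone, and MAGEC3 had none. Of the MAGED genes, MAGED1 was lower and MAGED2 slightly higher in DAC-treated cells, and MAGED4B had no UMI. Since UMIs of this 3′ assay are counted once per transcript molecule, they were not divided by transcript length, although capture can differ between genes.

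MAGEC2, a melanoma and testis antigen that binds the ligase TRIM28, lies at chrX:142202342-142205290. It had no UMI after mock treatment and 517 UMIs (8.76 CPM, 8.02 to 9.54) after DAC treatment. With the 0 entered as 3 counts this was 146-fold higher (133 to 159), an interval for the DAC-treated count alone. MAGEB6, a testis antigen at chrX:26192440-26195646, had 0 and 303 UMIs (5.13 CPM in DAC-treated cells, 4.57 to 5.74), in the same way 85.4-fold higher (76.0 to 95.5). The last 500 bases of its longest transcript were 91.6% identical to those of its neighbor MAGEB6B, which had 5 UMIs in DAC-treated cells, and 8 of 441 stretches of 60 bases were shared, so that a small part of the reads cannot be assigned to one of the pair. MAGEC1, an antigen known from multiple myeloma, at chrX:141903894-141909374, had 0 and 139 UMIs (2.35 CPM in DAC-treated cells, 1.98 to 2.78), in the same way 39.2-fold higher (32.9 to 46.2). For these 3 genes, 0 of 1783 mock-treated cells had a UMI, and 3 counts, the limit used here for a count of 0, would be 0.168% of cells. This limits cells with a UMI and not cells that express the gene. MAGEC3, located next to MAGEC1 at chrX:141838316-141897832, had 0 UMIs in both libraries, and no ratio can be given.

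MAGEB1 (chrX:30243715-30252040), a testis antigen, had 129 UMIs (2.58 CPM, 2.16 to 3.07) in mock-treated cells and 1005 UMIs (17.0 CPM, 16.0 to 18.1) in DAC-treated cells, 6.59-fold higher (5.48 to 7.97). It overlaps MAGEB4 on the same strand, which had 0 and 1 UMIs. MAGEB2 (chrX:30215563-30220089), an RNA-binding MAGE protein of spermatogonia, had 3317 UMIs (66.5 CPM, 64.2 to 68.8) in mock-treated and 6568 UMIs (111 CPM, 109 to 114) in DAC-treated cells, 1.67-fold higher (1.61 to 1.75). MAGEB2 thus did not show the silence in mock-treated cells that its class is known for, and had more UMIs there than MAGED1 and MAGED2 together. It carried 6568 of the 8532 UMIs of the germline genes in DAC-treated cells, and 3317 of 3446 in mock-treated cells. Across the germline genes the order of levels in DAC-treated cells was MAGEB2, MAGEB1, MAGEC2, MAGEB6, and MAGEC1, and no intervals of neighbors in this order overlapped.

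MAGED1 (chrX:51803007-51902354), an adaptor of the neurotrophin receptor known to promote apoptosis, had 1096 UMIs (22.0 CPM, 20.7 to 23.3) in mock-treated and 697 UMIs (11.8 CPM, 10.9 to 12.7) in DAC-treated cells, a ratio of 0.54 (0.49 to 0.59), whose interval reached past 2-fold. On the log2 scale the ratio was -0.90, and with a median-of-ratios scaling over 11152 genes it was -1.08, past a 2-fold difference. MAGED2 (chrX:54807599-54816015), known for its role in renal salt transport before birth, had 977 UMIs (19.6 CPM, 18.4 to 20.8) and 1369 UMIs (23.2 CPM, 22.0 to 24.4), a ratio of 1.18 (1.09 to 1.29), which was 1.04 with the other scaling. MAGED4B (chrX:52061827-52069219, minus strand) had 0 UMIs in both libraries. Its last 500 transcript bases were identical to those of MAGED4, also at 0 UMIs, so reads of this pair have no unique position and the 0 cannot be read as a lack of expression. MAGED1 and MAGED2 had nearly the same level in mock-treated cells, with overlapping intervals, and did not in DAC-treated cells.

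**Figure D1:**
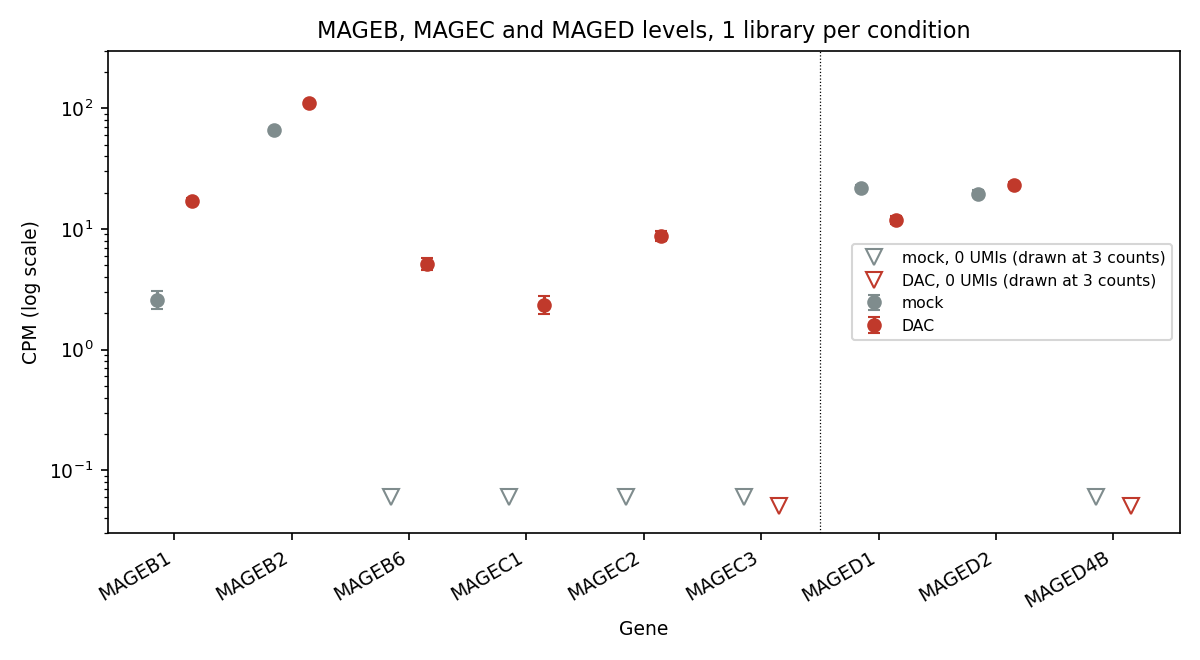
Level of each of the 9 genes in the mock-treated and DAC-treated libraries, in CPM on a log scale, with exact 95% Poisson intervals (counting error only, 1 library per condition). Open triangles mark genes with 0 UMIs, drawn at 3 counts over the library. MAGEB6, MAGEC1, and MAGEC2 are at 0 UMIs in the mock-treated library and between 2.35 and 8.76 in the DAC-treated one, and MAGED1 is the one gene with UMIs that is lower in DAC-treated cells.

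Of the 5 germline genes with 20 UMIs or more over both libraries, 4 were 2-fold or more higher in DAC-treated cells and none was lower. Of 17368 genes with 20 UMIs or more, 22.8% were 2-fold or more higher and 7.86% were 2-fold or more lower. The 3 germline genes without a UMI in mock-treated cells belong to 4.15% of these genes, and reached 20 UMIs only through the DAC-treated library, so they had to be higher there to be counted. Neither MAGED1 nor MAGED2 was past 2-fold, and their log2 ratios were on either side of 0, while the median of all genes was 0.29. Chromosome X as a whole had 579 such genes with a median log2 ratio of 0.36, and 29.4% of them were 2-fold or more higher. Without genes named MAGE, 27.5% of the 557 remaining genes on chromosome X were 2-fold or more higher.

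The share of cells with a UMI was next analyzed, to describe over how many cells the UMIs of each gene were spread. Both libraries held a single cell line without a cell type that should lack these genes, so no background share from free RNA can be given, and cells with 1 UMI cannot be told from it. MAGEB2 was detected in 1191 of 1783 mock-treated cells (66.8%, 64.6 to 69.0%) and in 1203 of 1751 DAC-treated cells (68.7%, 66.5 to 70.9%), so the intervals of these shares overlapped. Cells with 3 UMIs or more of MAGEB2 were 29.4% and 51.1%, and the highest cell had 19 and 30 UMIs. With all cells and UMIs, the share of cells with many UMIs of MAGEB2 thus differed, and that with any UMI differed by less than its counting error.

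MAGEB1 was detected in 104 mock-treated cells (5.83%, 4.79 to 7.02%), at most at 4 UMIs, and in 494 DAC-treated cells (28.2%, 26.1 to 30.4%), at most at 10 UMIs. MAGEB6 was detected in 155 DAC-treated cells (8.85%, 7.56 to 10.3%), MAGEC1 in 79 (4.51%, 3.59 to 5.59%), and MAGEC2 in 163 (9.31%, 7.99 to 10.8%). A single UMI was found in 87 of the 104 mock-treated cells with MAGEB1, and in 83, 49, and 70 of the DAC-treated cells with MAGEB6, MAGEC1, and MAGEC2. MAGEC2 and MAGEB6 were thus detected in similar shares of cells, with overlapping intervals, but 75 cells had 3 UMIs or more of MAGEC2 and 36 had 3 UMIs or more of MAGEB6. In the cells where it was detected, MAGEC2 had a mean of 3.17 UMIs and a maximum of 21, whereas MAGEB6 had a mean of 1.95 and MAGEC1 of 1.76, both with a maximum of 8. MAGED1 was detected in 703 mock-treated (39.4%, 37.2 to 41.7%) and 502 DAC-treated cells (28.7%, 26.6 to 30.9%), and MAGED2 in 662 (37.1%, 34.9 to 39.4%) and 753 cells (43.0%, 40.7 to 45.4%). MAGED1 and MAGED2 were spread over many cells at few UMIs, and 437 of the 703 mock-treated cells with MAGED1 had a single UMI. No cell of either library had 10 UMIs or more of MAGED1 or MAGED2, but the same was true of MAGEB6 and MAGEC1.

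**Figure D2:**
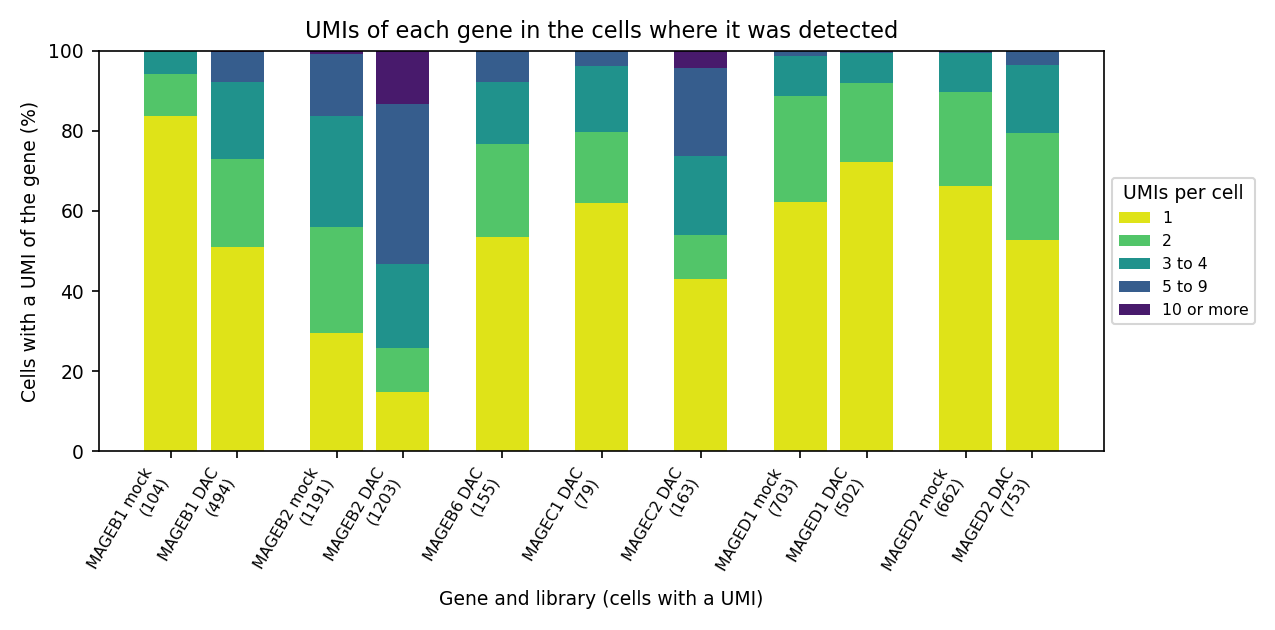
Among the cells with a UMI of a gene (number in parentheses under each bar), the percentage with 1, 2, 3 to 4, 5 to 9, and 10 or more UMIs, for each library in which the gene was detected. Of the 163 DAC-treated cells with MAGEC2, 7 had 10 UMIs or more and 36 had 5 to 9, and the bars of MAGED1 consist mostly of cells with 1 or 2 UMIs in both libraries.

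Since the libraries differed in depth, every cell was also thinned at random to 10000 UMIs, and cells with fewer were left out (395 after mock and 458 after DAC treatment). At this depth MAGEB2 was detected in 47.0% (44.3 to 49.6%) of 1388 mock-treated and 59.5% (56.7 to 62.2%) of 1293 DAC-treated cells, and the intervals did not overlap. In the same cells with all UMIs, the shares were 83.4% (81.3 to 85.3%) and 87.9% (86.0 to 89.6%), which did not overlap either. MAGEB1 was detected in 2.59% and 13.5%. MAGEB6 was detected in 3.94%, MAGEC1 in 2.17%, and MAGEC2 in 6.11% of DAC-treated cells, and none of them in a mock-treated cell. MAGED1 went from 18.4% (16.4 to 20.6%) to 12.6% (10.8 to 14.5%), and MAGED2 from 17.0% (15.1 to 19.1%) to 19.1% (17.0 to 21.4%), the latter with overlapping intervals.

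**Figure D3:**
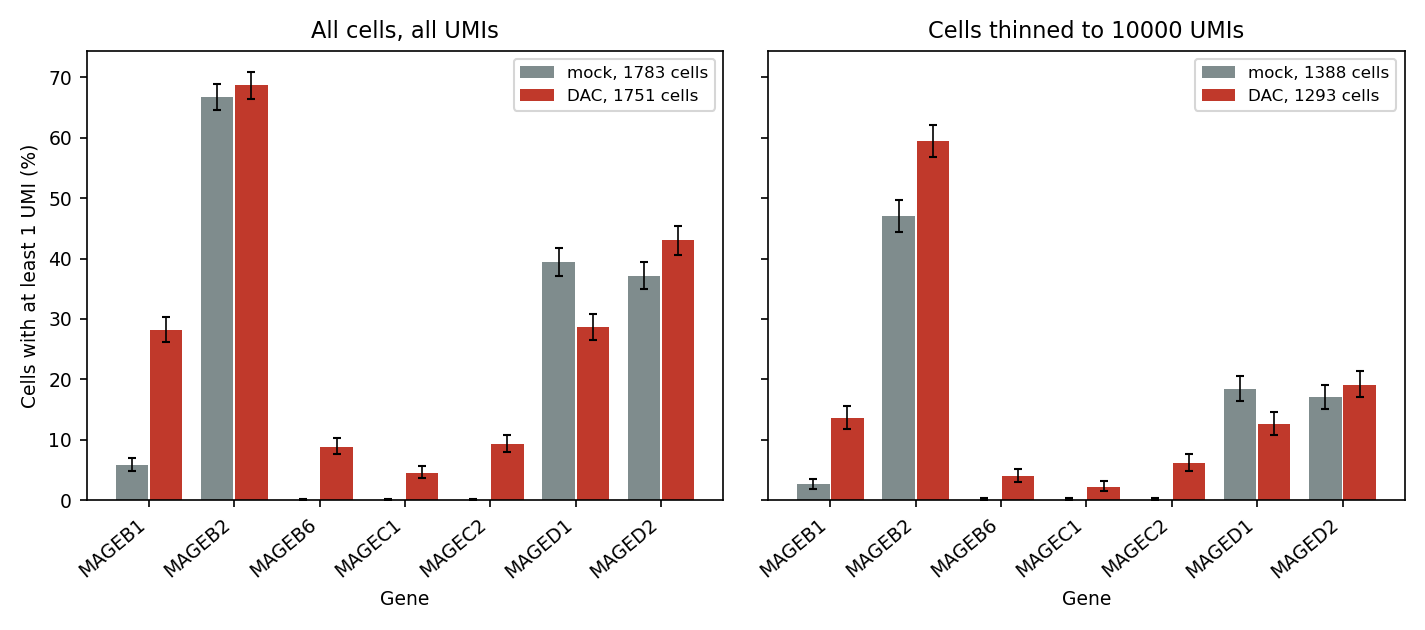
Percentage of cells with at least 1 UMI of each gene in mock-treated and DAC-treated cells, with all UMIs (left) and after each cell was thinned to 10000 UMIs (right). Error bars are exact 95% Clopper-Pearson intervals for counting error, with 1 library per condition. The shares of MAGEB2 are 66.8% and 68.7% on the left and 47.0% and 59.5% on the right, and MAGED1 is lower in DAC-treated cells in both panels.

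The spread of UMIs between cells was also read at 10000 UMIs per cell, as the variance over the mean, which is 1 for Poisson counting. In DAC-treated cells it was 2.33 for MAGEC2, 1.44 for MAGEB6, 1.39 for MAGEC1, 1.33 for MAGEB2, and 1.11 for MAGEB1. It was 0.99 for MAGED1 and 1.20 for MAGED2 in DAC-treated cells, and 1.07 and 1.04 in mock-treated cells. MAGEB2 had 1.06 in mock-treated cells. Of the 7 genes with UMIs, MAGEC2 thus had the highest value, and MAGED1 was close to 1 in both libraries.

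Levels of the members also varied with the quality of a cell. In DAC-treated cells with over 50% mitochondrial UMIs, MAGEB2 was at 20.5 CPM, against 118 in the other cells, and in mock-treated cells the values were 15.0 and 69.1. MAGEC2 was at 5.24 and 9.01 CPM in the same 2 classes of DAC-treated cells. When cells with under 10000 UMIs or over 50% mitochondrial UMIs were left out, MAGEB2 was detected in 87.6% (85.7 to 89.3%) of 1298 mock-treated and 96.7% (95.5 to 97.7%) of 1120 DAC-treated cells, and MAGEC2 in 12.6% (10.7 to 14.7%) of these DAC-treated cells. When DAC-treated cells were ordered by their UMIs and divided into 3 groups of equal size, MAGEC2 was at 7.62 CPM (4.77 to 11.5) in the group with the fewest (median, 2179 UMIs), 11.9 (10.5 to 13.6) in the middle group, and 7.09 (6.25 to 8.02) in the group with the most. MAGEB2 was at 55.7, 104, and 120 CPM in the same groups. MAGEC1 (2.08, 2.81, and 2.13), MAGED1 (7.96, 13.9, and 10.96), and MAGED2 (19.4, 29.6, and 19.96) had the highest value in the middle group, as did MAGEC2. The intervals of MAGEC1 overlapped between all groups, and those of MAGEC2 overlapped between the first and the middle group. MAGEB1 (5.54, 16.9, and 18.0) was highest in the group with the most UMIs. MAGEB6 (5.54, 5.27, and 5.02) was highest in the group with the fewest, with overlapping intervals.

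Germline genes were then examined together in each cell. At least 1 of the 6 was detected in 67.4% (65.1 to 69.5%) of mock-treated and 71.2% (69.0 to 73.3%) of DAC-treated cells, and 3 UMIs or more of a single one in 29.6% and 52.3%. At 10000 UMIs per cell, at least 1 was detected in 48.1% and 66.3%. Without MAGEB2, the shares of cells with a germline MAGEB or MAGEC UMI were 5.83% and 36.0% with all cells and UMIs, and 2.59% and 21.4% at 10000 UMIs per cell. Only MAGEB2 and MAGEB1 had UMIs in the mock-treated library, so a mock-treated cell could hold at most 2 of the 6 genes. Both were found in 94 mock-treated cells. A count of 3 or more was thus open to DAC-treated cells alone, and 191 of them (10.9%) had it, with 5 genes in 10 cells. At 10000 UMIs per cell, 34 of 1293 DAC-treated cells (2.63%) had 3 or more. All 6 genes were at 0 UMIs in 504 DAC-treated cells with all UMIs. Among the 1120 DAC-treated cells with 10000 UMIs or more and at most 50% mitochondrial UMIs, at least 1 was detected in 97.9% (96.9 to 98.7%).

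In DAC-treated cells of 10000 UMIs or more, MAGEC1 and MAGEC2 were often detected in the same cells. MAGEC1 was found in 43 of 152 cells with MAGEC2 (28.3%, 21.3 to 36.2%) and in 35 of 1141 cells without it (3.07%, 2.15 to 4.24%). In the other direction, MAGEC2 was found in 55.1% (43.4 to 66.4%) of 78 cells with MAGEC1 and in 8.97% (7.42 to 10.7%) of 1215 cells without it. After thinning, MAGEC1 was found in 13 of 79 cells with MAGEC2 (16.5%, 9.06 to 26.5%) and 15 of 1214 without (1.24%, 0.69 to 2.03%), and these intervals did not overlap either. The last 500 transcript bases of MAGEC1 and MAGEC2 were 74.6% identical and shared none of 441 stretches of 60 bases.

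MAGEB6 was also found with other germline genes. MAGEB1 was detected in 69.4% (61.3 to 76.7%) of 147 cells with MAGEB6 and in 33.6% (30.9 to 36.4%) of 1146 cells without it, but after thinning the shares were 21.6% (11.3 to 35.3%) and 13.2% (11.4 to 15.2%), with overlapping intervals. MAGEC2 was detected in 26.5% (19.6 to 34.4%) of cells with MAGEB6 and 9.86% (8.20 to 11.7%) of cells without it, and after thinning in 19.6% (9.82 to 33.1%) and 5.56% (4.35 to 6.98%). MAGEC1 was detected in 15.6% (10.2 to 22.5%) of cells with MAGEB6 and 4.80% (3.64 to 6.20%) of cells without it, with all UMIs. MAGED2 was detected in 76 of 152 cells with MAGEC2 (41.8 to 58.2%) and in 57.3% (54.4 to 60.2%) of cells without it, and MAGED1 in 44.1% (36.0 to 52.4%) and 37.6% (34.8 to 40.5%), with overlapping intervals for both. MAGED2 was detected in 67.3% (59.1 to 74.8%) of cells with MAGEB6 and 55.1% (52.1 to 58.0%) without it, but after thinning in 15.7% (7.02 to 28.6%) and 19.2% (17.1 to 21.5%).

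**Figure D4:**
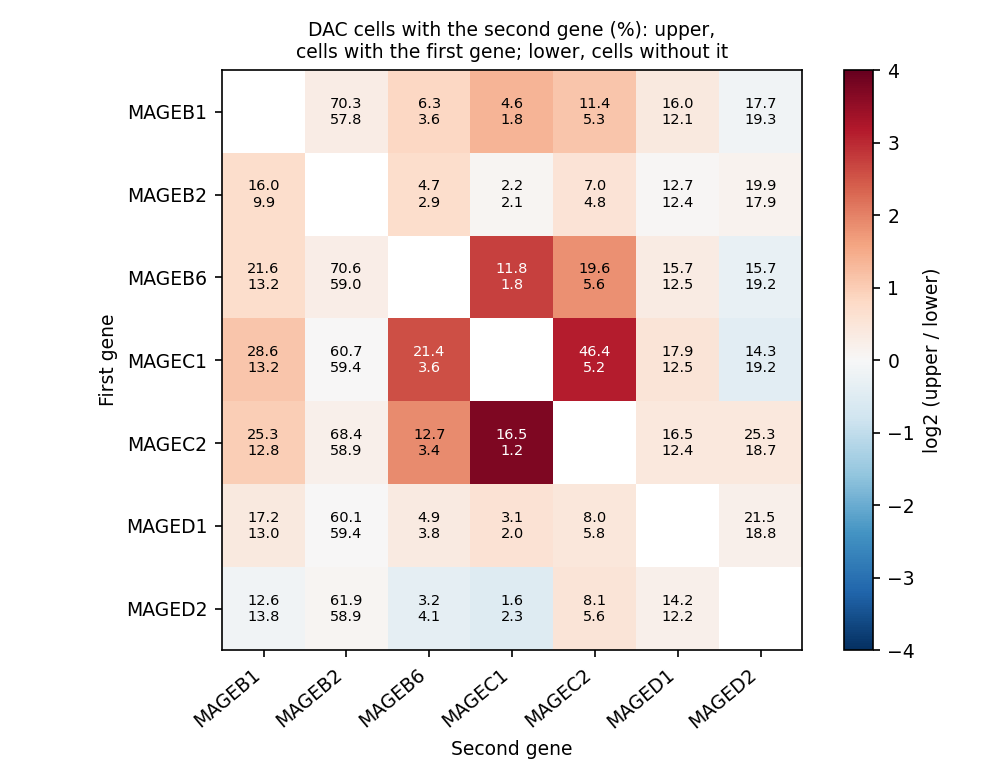
Co-detection of pairs of genes in 1293 DAC-treated cells thinned to 10000 UMIs. In each square the upper number is the percentage of cells with the second gene (column) among cells with the first gene (row), the lower number is that among cells without the first gene, and the color is the log2 of their ratio. The deepest color is at MAGEC2 and MAGEC1 (16.5% and 1.24%), and rows and columns of MAGED1 and MAGED2 are pale.

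For genes with a pattern over cells most like that of a member, Pearson correlations over the 1293 DAC-treated cells of 10000 UMIs or more were taken on log2(CPM + 100) with 13134 genes, as a description. For MAGEC2 the 3 highest were TEX13C (0.45), MAGEC1 (0.43), and FMR1NB (0.41), all genes of chromosome X known from testis. For MAGEB6 they were VCX3B (0.40), VCX3A (0.38), and VCX (0.36), a family of near-identical copies expressed in male germ cells. For MAGEB2 they were PFN1 (0.53), which codes for the actin-binding profilin, POMP (0.52), a proteasome assembly factor, and HSBP1 (0.52), genes expressed in most cell types. No gene reached 0.3 for MAGEB1, MAGED1, or MAGED2. All of these points came from 1 library, and cells with more UMIs give more precise values for every gene. Of the 1293 cells, 1120 had at most 50% mitochondrial UMIs, and the others were kept. Over all DAC-treated cells, MAGEB2 was at 20.5 CPM in those with over 50% mitochondrial UMIs and at 118 CPM in the rest. The part of this difference in the correlations was not tested.

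MAGEA4, a germline MAGE gene of another subfamily with 0 UMIs in mock-treated and 8160 UMIs in DAC-treated cells, was detected in 80.3% (73.0 to 86.3%) of cells with MAGEC2 and 50.7% (47.7 to 53.6%) of cells without it, in DAC-treated cells of 10000 UMIs or more. Of 10 MAGEA genes with 20 UMIs or more, 9 were 2-fold or more higher in DAC-treated cells (22.8% of all genes), and these had at most 2 UMIs in mock-treated cells, so that they reached 20 UMIs only through the DAC-treated library. The exception was MAGEA3 (2776 and 5384 UMIs, 1.64-fold), which like MAGEB2 was abundant already after mock treatment.

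Other MAGEB genes lie between and beside the members. Of 8, MAGEB3 and MAGEB10 had 20 UMIs or more, and both were 2-fold or more higher (22.8% of all genes), having reached 20 UMIs through the DAC-treated library. MAGEB3, which lies between MAGEB2 and MAGEB1, had 3 and 172 UMIs, 48.5-fold higher (16.3 to 237), and MAGEB10 had 0 and 299, at least 84.2-fold higher. MAGEB4 lies after MAGEB3 and overlaps MAGEB1 on the same strand, where reads may not be assigned to one gene. MAGEB4 had 0 and 1 UMIs, and MAGEB5, close to MAGEB6, had 0 in both. Adjacent MAGEB genes thus differed in level, with 3317, 3, 0, and 129 UMIs in mock-treated cells from MAGEB2 to MAGEB1 and 6568, 172, 1, and 1005 in DAC-treated cells. The same held for MAGEC3 and MAGEC1, with 0 and 139 UMIs in DAC-treated cells, and SPANXD, on the other side of MAGEC3, had 0 and 15 UMIs.

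Within 200 kb of the MAGED genes, 5 of 7 neighbors of MAGED1 (MAGED4B among them), 1 of 4 of MAGED2, and 4 of 4 of MAGED4B (MAGED4 among them) had 0 UMIs in both libraries. Near copies of the other neighbors were not looked for, so these counts of 0 do not show a lack of expression. Near MAGED1, GSPT2, a translation termination factor gene, had 0 and 147 UMIs, in contrast to the lower ratio of MAGED1 itself. With the 0 entered as 3 counts, GSPT2 was 41.4-fold higher (35.0 to 48.7). Near MAGED2, the type II MAGE gene TRO (trophinin) had 1 and 40 UMIs, 33.8-fold higher (5.73 to 1368), the DNA repair gene APEX2 had 784 and 1841 UMIs, 1.98-fold higher, and PFKFB1, which codes for a regulator of glycolysis, had 10 and 5 UMIs, a ratio of 0.42 (0.11 to 1.36).

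The MAGED genes were also set beside 9 other type II MAGE genes. In mock-treated cells 6 of the 9 had 0 or 1 UMI, among them MAGED4, whose 0 cannot be read for the reason given for MAGED4B. The share of all genes at 0 or 1 UMI was not counted, but of 33538 genes only 17368 had 20 UMIs or more over both libraries. Of 6 type II MAGE genes in this list with 20 UMIs or more, 3 were 2-fold or more higher and none was lower (22.8% and 7.86% of all genes). TRO, NDN (necdin, an imprinted growth suppressor gene; 0 and 169 UMIs), and MAGEH1 (0 and 56 UMIs) were the 3 higher genes, and with at most 1 UMI in mock-treated cells they reached 20 UMIs only through the DAC-treated library. MAGEF1 (1934 and 2002 UMIs, ratio 0.88), NSMCE3 (895 and 1101 UMIs, ratio 1.04), and MAGEE1 (35 and 68 UMIs, ratio 1.64, 1.08 to 2.54) were not past 2-fold.

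Finally, 11 ligases and cofactors known to pair with MAGE proteins were examined. TRIM31 was 2-fold or more higher (3 and 22 UMIs, ratio 6.20, 1.86 to 32.3), although it reached 20 UMIs only through the DAC-treated library, NSMCE1 (4263 and 1807 UMIs, ratio 0.36) and LNX1 (75 and 44 UMIs, ratio 0.50, 0.33 to 0.73) were 2-fold or more lower, and the other 8 were not past 2-fold (22.8% of all genes were higher and 7.86% lower). TRIM28, the partner of MAGEC2, was at 156 and 239 CPM, a ratio of 1.53 (1.49 to 1.57). PJA1, which was found as a partner of MAGED1, was at 7.67 and 13.3 CPM, a ratio of 1.73 (1.53 to 1.96). The median log2 ratio of the 11 genes was 0.61, against 0.29 for all genes.

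**Figure D5:**
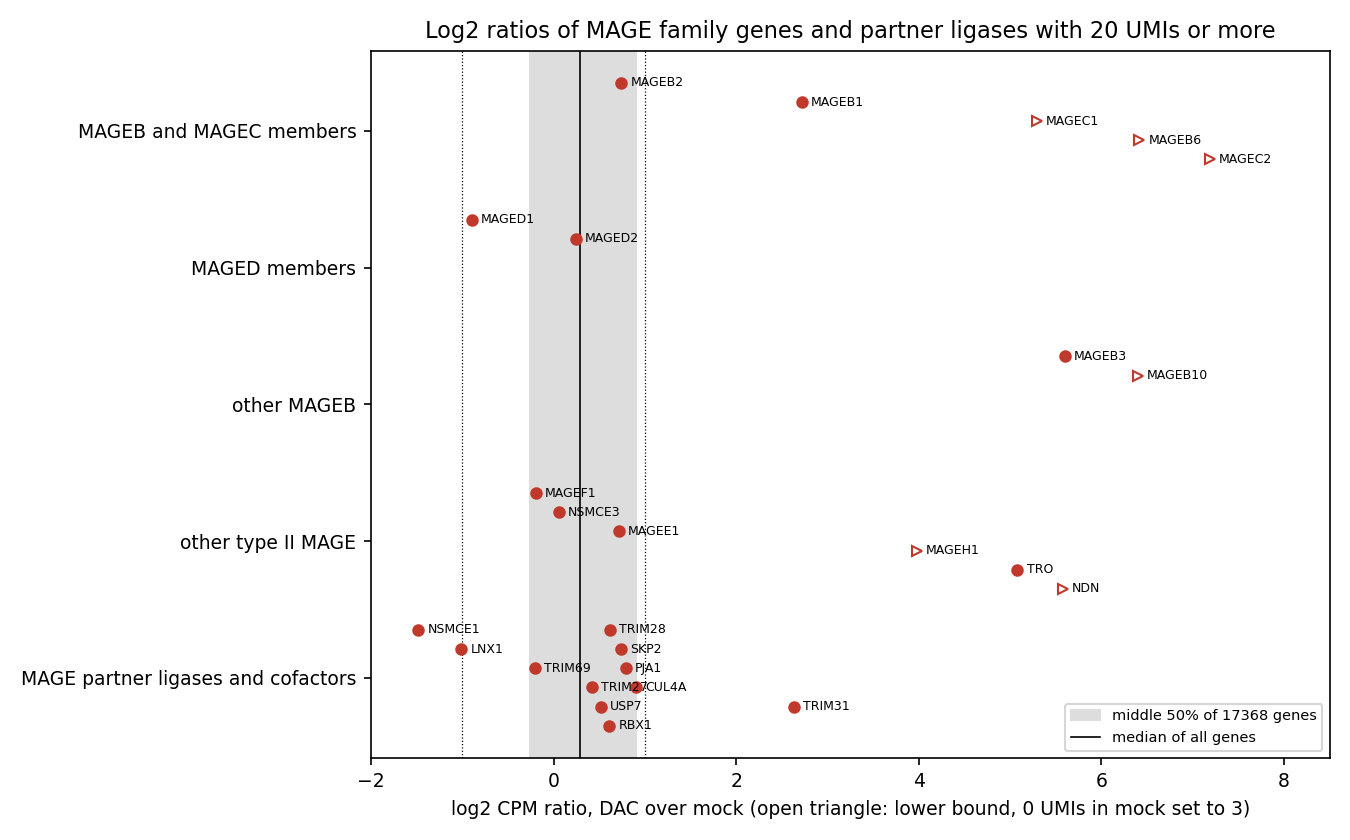
Log2 ratio of CPM, DAC-treated over mock-treated, for genes with 20 UMIs or more over both libraries in 5 lists (rows). Filled circles are ratios and open triangles are lower bounds for genes with 0 UMIs in mock-treated cells, the gray band runs from the lower to the upper quartile of 17368 genes, the solid line is their median (0.29), and dotted lines mark 2-fold. MAGEB1, MAGEB6, MAGEC1, and MAGEC2 lie to the right of the 2-fold line, MAGEB2 and MAGED2 within the band, and MAGED1 at -0.90.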

How the data were processed

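Per the labels and the paper's methods, the authors prepared 1 library of mock-treated and 1 of DAC-treated HCT116 cells with the Chromium 3′ kit, mapped reads to hg38, and counted UMIs using Cell Ranger. The deposited tables held raw UMI counts of each gene in each cell, as whole numbers. The annotation release, the strand setting, and any filter on cells were not given in the sources used here, and the files held more barcodes than the live cells that the methods give for a library. UMI totals were 49911689 and 59046165. A count of 1 UMI limits detection, so shares of cells depend on depth.

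All deposited cells were used, and no doublet caller was run, since cells of 1 line carry no marker of a doublet. As an alternative, the top 5% of cells by UMIs were dropped. UMIs were summed per library and scaled to its total. Intervals were exact (Poisson for sums, conditional binomial for ratios, Clopper-Pearson for shares) at 95%. A gene with 0 UMIs in mock-treated cells entered its ratio as 3 counts. Genes with 20 UMIs or more over both libraries were counted at 2-fold. Cells were thinned to 10000 UMIs (seed, 11). Positions were from GENCODE release 44 (33113 of 33538 identifiers matched), and all 9 genes matched the RefSeq promoter table. The text names all 9 genes, the genes of the fixed lists, genes starting within 200 kb of a member (those at or near 0 UMIs in part without a name), and the 3 genes most correlated with each member with 200 UMIs or more in DAC-treated cells where r was 0.3 or more. Members and lists were chosen with earlier results of these data known. Python 3.11.15, numpy 2.4.6, scipy 1.17.1, Biopython 1.88, and matplotlib 3.10.9 were used, and ratios and thinning were tested on simulated data. Alternatives were thinning to 10000 or 1000 UMIs, other sets of cells, median-of-ratios scaling (genes with 100 UMIs or more in both libraries), the mean of per-cell values, a floor of 1 count, and other folds and UMI limits.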

Additional observations from a re-analysis of the deposited data

How the results depend on the processing

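No paired analysis was possible because there was 1 library per condition. For the 4 genes with UMIs in both libraries, the log2 ratio kept its sign in all 30 alternatives. For MAGEB6, MAGEC1, and MAGEC2 the sign is fixed by the 0 in mock-treated cells, and MAGEC1 gave no ratio at 1000 UMIs per cell. At 1000 UMIs, however, the intervals of MAGED1 (-0.39, -1.30 to 0.49) and MAGED2 (0.43, -0.41 to 1.28) included 0. The summed log2 ratio of MAGEB and MAGEC was 1.07, and became 0.99 at 10000 UMIs per cell, 1.32 at 1000 UMIs per cell, 0.88 with median-of-ratios scaling, which lowers every log2 ratio by 0.18, and 3.69 without MAGEB2, an alternative chosen after seeing the data. The summed log2 ratio of MAGED was -0.25, and became -0.14 at 10000 UMIs (-0.32 to 0.04), 0.036 at 1000 UMIs (-0.56 to 0.63), -0.43 with median-of-ratios scaling, and -0.16 as the mean of per-cell values.

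A MAGEB or MAGEC UMI was found in a share of DAC-treated cells that was 71.2%, and became 66.3% at 10000 UMIs, 12.6% at 1000 UMIs, 97.9% without cells under 10000 UMIs or over 50% mitochondrial, and 36.0% without MAGEB2. The share with 3 UMIs of 1 gene was 52.3%, and under the same alternatives was 11.8%, 0%, 81.0%, and 12.2%, with 59.9% for 2 UMIs and 37.8% for 5 UMIs. The number of MAGEB and MAGEC genes past 2-fold was 4, and was 1 at 1000 UMIs, where fewer genes had 20 UMIs (16.9% of all genes higher), and 5 at a fold of 1.5, with MAGEB2 (36.1%). The number of MAGED genes was 0, and 1, MAGED1, with median-of-ratios scaling (10.4% of all genes lower) and at a fold of 1.5 (15.2%). Shares and the 3-UMI limit depend on depth, and differences of levels near 0 UMIs are limited by the 3-count floor.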
